A study of Bos taurus with 14 samples.

Results

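TLR2, TLR4 and CD14 are cell-surface proteins through which innate immune cells and uterine lining cells sense bacterial products. TLR2 responds to bacterial lipoproteins, and TLR4 responds to lipopolysaccharide, the outer membrane component of Gram-negative bacteria. CD14 has no signalling domain of its own. It binds these ligands and hands them to the receptors, lipopolysaccharide to TLR4 above all, and is known as a marker of monocytes and macrophages. Both receptors signal through adaptor proteins to NF-kB and to the genes of inflammation. In the bovine uterus they are studied mostly for bacterial infection after calving, and the samples described here were taken on a day of the oestrous cycle without any stated infection or stimulus.

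The members were chosen by identifier: ENSBTAG00000008008 for TLR2, ENSBTAG00000006240 for TLR4 and ENSBTAG00000015032 for CD14. All 3 were found among the 15524 genes of the count table, and all 3 passed the filter on low counts that left 14929 genes for testing. The names came with the choice of the identifiers. The RefSeq gene table used for names holds a gene of each name but matched 0 of the Ensembl identifiers, so the pairing of name and identifier could not be checked from a reference. No protein or promoter sequence is shown for the same reason.

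Polyadenylated RNA of endometrium, the uterine lining, was sequenced from cattle in 14 libraries from the uterine horn labelled ipsilateral, at the time point given as day 7 oestrus. The labels place 7 samples in a group of high fertility, written Fert+, and 7 in a group of low fertility, written Fert-. They give no untreated control, no batch and no pairing, and state neither strain nor age nor whether each sample is from its own cow. The p-values below therefore refer to the spread among these libraries. Replicate numbers follow the order of the sample list and serve as names only. Library totals were 20641141 to 23641397 counts. The tissue label could not be checked against markers of epithelium, stroma or blood cells, since no marker could be paired with an identifier, and levels of immune cell markers beside the values below were not measured for the same reason.

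The 3 genes were detected in every library, and none of them passed the test for a difference between high and low fertility endometrium. Levels are given as CPM, the count rate relative to the library total after TMM scaling (trimmed mean of M values). TLR2 was at 9.04 ± 1.27 CPM (SD, n = 7) across high fertility samples and 10.4 ± 2.34 CPM (SD, n = 7) across low fertility samples. TLR4 was at 42.3 ± 6.33 CPM (SD, n = 7) across high fertility samples and 39.7 ± 5.33 CPM (SD, n = 7) across low fertility samples. CD14 was at 34.7 ± 5.75 CPM (SD, n = 7) across high fertility samples and 36.4 ± 12.5 CPM (SD, n = 7) across low fertility samples. For each gene the ranges of the groups overlapped, and the difference of the means was smaller than the larger of the group SDs. In whole tissue, fewer cells that express a gene and less of its RNA per cell cannot be told apart. CPM is not corrected for gene length, so the levels of the 3 genes are not compared with each other.

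**Figure D1:**
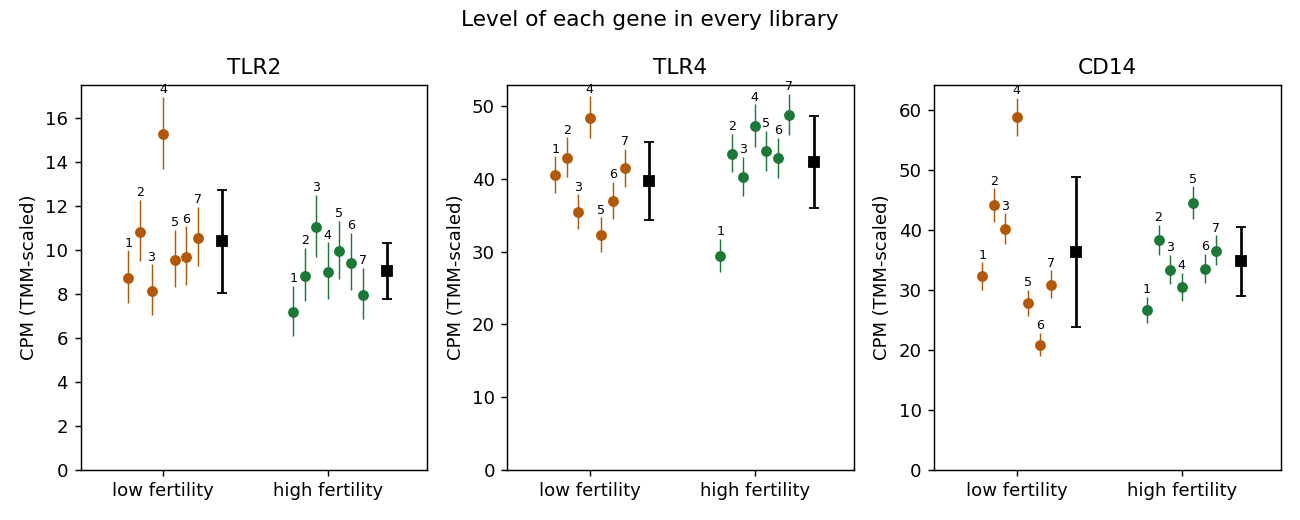
CPM of TLR2, TLR4 and CD14 in each of the 14 libraries, by fertility group, with the replicate number above each point and the 95% Poisson interval of its count as a bar. Black squares and bars are the group mean and SD (n = 7). The groups overlap for every gene, and low fertility replicate 4 has the highest TLR2 and the highest CD14 of all libraries.

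TLR2, the receptor for lipoproteins, was read from 159 to 342 counts per library. High fertility samples ranged from 7.16 to 11.02 CPM with a median of 8.98 CPM, and low fertility samples ranged from 8.11 to 15.2 CPM with a median of 9.65 CPM. High fertility replicate 1 was the lowest library and low fertility replicate 4 the highest. Of the 7 high fertility samples, 5 lay within the low fertility range and 2 lay above the low fertility median. The replicate at 15.2 CPM stood apart from its group, whose next value was 10.8 CPM. Its Poisson 95% interval of 13.7 to 16.9 CPM and that of the next replicate, 9.47 to 12.3 CPM, did not overlap. Such intervals cover counting error only.

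The fitted log2 change of TLR2, high minus low fertility, was -0.20 (SE 0.156, 95% interval -0.53 to 0.13), and its adjusted p was 0.794 by the quasi-likelihood F test of edgeR, Benjamini-Hochberg adjusted over all genes. As a ratio this was 0.871 of the low fertility level, with an interval of 0.693 to 1.10. Among all genes tested, 61.8% had a smaller absolute change. Without low fertility replicate 4 the log2 change was -0.088 (95% interval -0.38 to 0.20), and the adjusted p was 0.863 by the same edgeR test.

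TLR4, the receptor for lipopolysaccharide, was read from 654 to 1142 counts. High fertility samples ranged from 29.5 to 48.8 CPM with a median of 43.5 CPM, and low fertility samples ranged from 32.3 to 48.4 CPM with a median of 40.5 CPM. Both the lowest and the highest library were high fertility samples, replicates 1 and 7, and all 7 low fertility samples lay between them. High fertility replicate 1 was the only sample of its group below 40 CPM, at 29.5 CPM. The next of that group was replicate 3 at 40.3 CPM.

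The log2 change of TLR4 was 0.091 (SE 0.121, 95% interval -0.17 to 0.35). The quasi-likelihood F test of edgeR gave an adjusted p of 0.884. High fertility samples were thus at 1.06 times the low fertility level, with an interval of 0.891 to 1.27. Of the 7 high fertility samples, 5 lay above the low fertility median. Without high fertility replicate 1 the change was 0.16 (95% interval -0.053 to 0.36), and the adjusted p by edgeR was 0.507. Leaving out low fertility replicate 5 gave 0.046, and leaving out high fertility replicate 7 gave 0.053.

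CD14, the co-receptor, was read from 449 to 1319 counts and had the widest range of the 3 genes, 2.82-fold from the lowest to the highest library. High fertility samples ranged from 26.6 to 44.5 CPM with a median of 33.5 CPM. Low fertility samples ranged from 20.8 to 58.8 CPM with a median of 32.3 CPM, and all 7 high fertility samples lay within that range. Low fertility replicate 6 was the lowest library at 20.8 CPM and low fertility replicate 4 the highest at 58.8 CPM. Both ends of the CD14 range therefore came from the low fertility group.

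The log2 change of CD14 was -0.067 (SE 0.193, 95% interval -0.48 to 0.34), a level of 0.955 with an interval of 0.718 to 1.27, and its adjusted p was 0.948 by the quasi-likelihood F test of edgeR. Its sign turned without low fertility replicate 4, where the log2 change was 0.082 (95% interval -0.28 to 0.44) and the adjusted p by edgeR was 0.897. No direction can be given for CD14.

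None of the 3 genes passed the adjusted p threshold of 0.05, which 5 of the 14929 genes tested, 0.0335%, passed. None had an unadjusted p under 0.05 in the same edgeR fit either, which 6.77% of genes had. The groups did not separate for any of the 3, and they did so for 0.121% of genes. For all 3 genes the 95% interval lay inside a 1.5-fold difference in either direction, as it did for 52.4% of the genes tested. Changes of 1.5-fold or beyond thus lay outside these intervals. For TLR2 this did not hold in each fit without 1 library: the lower bound was -0.59 without low fertility replicate 1 or 3 and -0.60 without high fertility replicate 3, just past 1.5-fold. The standard error of TLR4 was smaller than that of 84.9% of genes, that of TLR2 smaller than for 65.4% and that of CD14 smaller than for 48.2%.

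**Figure D2:**
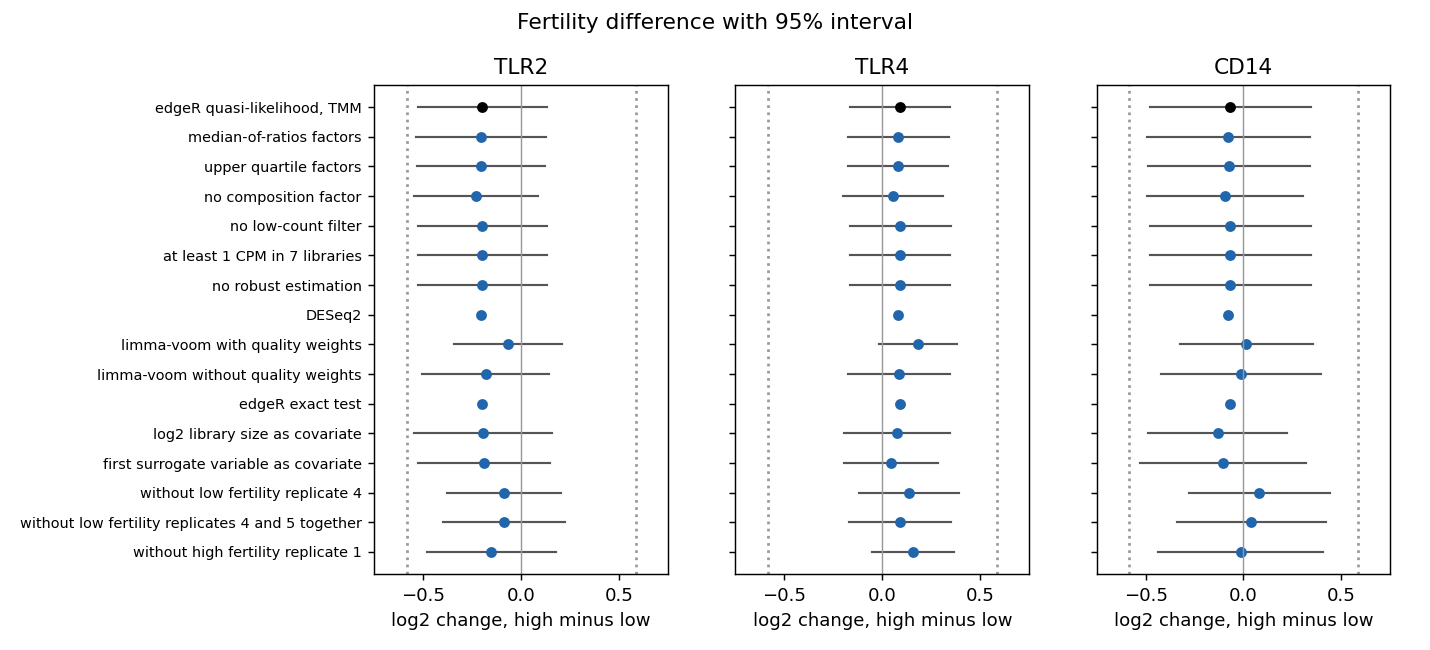
Log2 change, high minus low fertility, for TLR2, TLR4 and CD14 in the edgeR fit over all libraries (black) and in 15 other fits named at the left (blue; of the fits without 1 library, those without low fertility replicate 4 or high fertility replicate 1), with 95% intervals as lines where the fit gave one here. Dotted lines mark 1.5-fold. Each interval drawn spans 0 and lies inside the dotted lines. The CD14 point changes sides without low fertility replicate 4, without low fertility replicates 4 and 5 together, and by limma-voom with quality weights.

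The spread over the 14 libraries exceeded counting error for all 3 genes. The coefficient of variation (CV, the SD as a percent of the mean) of TLR2 was 19.97%, against 6.74% from counting alone. That of TLR4 was 14.1% against 3.27%, and that of CD14 was 26.4% against 3.51%. Variation between tissue samples and that from library preparation cannot be told apart here.

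Each gene was set beside the genes whose mean CPM lay within 2-fold of its own. TLR4 varied less than most of these, as 19.4% of 5251 genes had a lower CV, and the median CV there was 20.3%. TLR2 also lay in the lower part, with 23.95% of 3707 genes below it and a median CV of 28.0%. CD14 varied more than most, with 70.1% of 5323 genes below it and a median CV of 20.7%. These places are descriptions of these libraries without a test.

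Spread was also compared between the fertility groups. Values were first centred on their group medians, so the permutation p is approximate although all splits were used. CD14 had an SD of 0.238 log2 CPM in high and 0.486 in low fertility samples, a difference of -0.25 (two-sided permutation p = 0.183, adjusted over the 3 genes 0.549). The SD of TLR2 was 0.202 in high and 0.292 in low fertility samples (permutation p = 0.732, adjusted 0.834). The SD of TLR4 was 0.240 in high and 0.193 in low fertility samples (permutation p = 0.834, adjusted 0.834). The wider CD14 spread of the low fertility group thus did not pass the test, and the difference was -0.15 without low fertility replicate 4 and -0.16 without low fertility replicate 6. The signs for TLR2 and TLR4 each rested on 1 library. The difference was -0.090 for TLR2 and became 0.046 without low fertility replicate 4, and it was 0.047 for TLR4 and became -0.093 without high fertility replicate 1.

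A ratio of genes within a library does not depend on the library total or on its scaling, apart from the prior count of 2 added before logs were taken. The log2 ratio of TLR2 to TLR4 was -2.21 ± 0.243 (SD, n = 7) across high fertility samples and -1.94 ± 0.190 (SD, n = 7) across low fertility samples. High fertility values ran from -2.60 to -1.86 with a median of -2.18, and low fertility values ran from -2.20 to -1.66 with a median of -1.97. The lowest 3 libraries, replicates 7, 4 and 2, were high fertility samples, and the highest 2, replicates 4 and 5, were low fertility samples. In 6 of the 7 high fertility samples the ratio lay below the low fertility median.

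The difference of this ratio was -0.27 (95% interval -0.52 to -0.015 by inversion of the exact permutation test), or 0.831-fold, and its exact two-sided permutation p was 0.0425. With adjustment over the 3 ratios compared the exact permutation p was 0.128, so it did not pass the threshold. Without low fertility replicates 4 and 5 together the difference was -0.17 (exact permutation p = 0.181, adjusted 0.542). Without high fertility replicate 3 it was -0.33, with an adjusted exact permutation p of 0.0385. The result thus rested on which libraries were included.

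The ratios to CD14 differed less. The log2 ratio of TLR2 to CD14 was -1.93 ± 0.228 (SD, n = 7) across high fertility samples and -1.76 ± 0.394 (SD, n = 7) across low fertility samples. The difference was -0.17 (95% interval -0.55 to 0.20, exact permutation p = 0.348, adjusted 0.522). The log2 ratio of TLR4 to CD14 was 0.28 ± 0.212 (SD, n = 7) across high fertility samples and 0.19 ± 0.384 (SD, n = 7) across low fertility samples. The difference was 0.099 (95% interval -0.27 to 0.46, exact permutation p = 0.561, adjusted 0.561). Without low fertility replicate 6 the difference was -0.060 for TLR2 to CD14 and 0.21 for TLR4 to CD14, and for the latter it was 0.021 without low fertility replicate 4. Low fertility replicate 6 had the highest value of both ratios, at -1.10 and 0.83, and was the library with the least CD14.

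**Figure D3:**
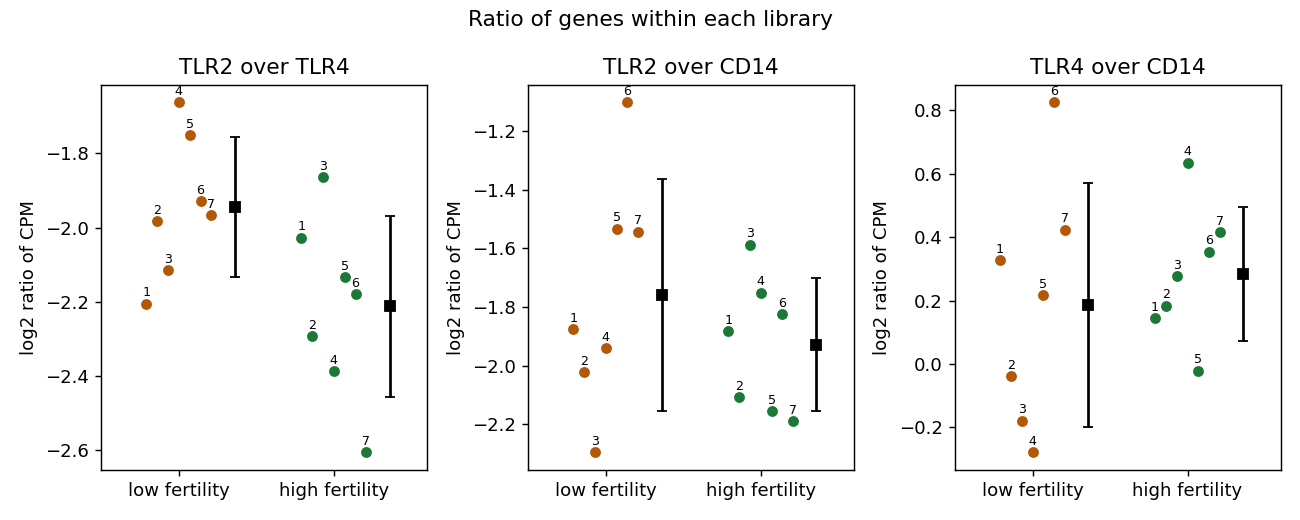
Log2 ratio of CPM for each pair of genes in each library, by fertility group, with replicate numbers above the points. Black squares and bars are the group mean and SD (n = 7). The ratio of TLR2 to TLR4 sits lower in high fertility samples with overlap of the groups, and the ratios to CD14 overlap throughout.

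Because CD14 presents ligands to both receptors, it was asked whether the 3 genes varied together over the libraries. All 3 pairs had a positive Pearson r of log2 CPM, and none passed the threshold after adjustment over the 3 pairs. With the group means removed, r was 0.577 for TLR2 with TLR4 and 0.586 for TLR4 with CD14, which passed (adjusted permutation p = 0.0481 each), and 0.552 for TLR2 with CD14, which did not (adjusted permutation p = 0.0764). TLR4 and CD14 had r = 0.569 (n = 14, permutation p = 0.0349, adjusted 0.0900) and Spearman rho = 0.591 (permutation p = 0.0297, adjusted 0.0889). TLR2 and CD14 had r = 0.520 (permutation p = 0.0600, adjusted 0.0900) and rho = 0.301 (permutation p = 0.293, adjusted 0.440). TLR2 and TLR4 had r = 0.450 (permutation p = 0.110, adjusted 0.110) and rho = 0.204 (permutation p = 0.482, adjusted 0.482).

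The relations of TLR2 rested on 2 libraries at its ends, low fertility replicate 4 and high fertility replicate 1. Without these, r of TLR2 with TLR4 was -0.109 (n = 12, permutation p = 0.735) and r of TLR2 with CD14 was -0.0605 (n = 12, permutation p = 0.855). For TLR4 and CD14 the libraries farthest from the TLR4 median were high fertility replicate 1 and low fertility replicate 5. Without them r was 0.457 (n = 12, permutation p = 0.134), so this relation was lower but still positive. Without the libraries left out for TLR2, r of TLR4 with CD14 was 0.393 (n = 12, permutation p = 0.208).

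Within the groups, r of TLR4 with CD14 was 0.608 in high (n = 7, exact permutation p = 0.162) and 0.671 in low fertility samples (n = 7, exact permutation p = 0.0972). For TLR2 with TLR4 it was 0.408 in high (n = 7, exact permutation p = 0.374) and 0.768 in low fertility samples (n = 7, exact permutation p = 0.0452). For TLR2 with CD14 it was 0.472 in high (n = 7, exact permutation p = 0.278) and 0.587 in low fertility samples (n = 7, exact permutation p = 0.159). Without replicate 4 the low fertility values were 0.382, 0.492 and -0.0441 in the same order (n = 6, exact permutation p = 0.465, 0.324 and 0.928). Whether r differed between the groups was not tested.

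**Figure D4:**
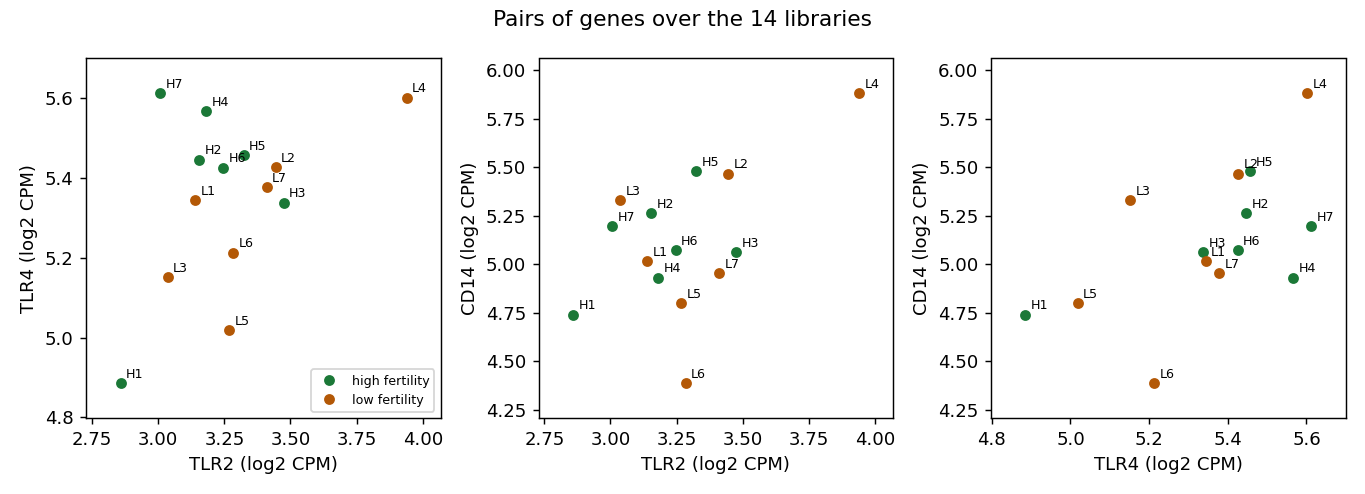
Log2 CPM of each pair of genes in the 14 libraries, high fertility in green (H) and low fertility in brown (L) with the replicate number. L4 lies at the upper right of every panel and H1 at the lower left or near it. Without these libraries the points of TLR2 show no trend with TLR4 or CD14.

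The genes were then placed among all others by r over the 14 libraries, as a description. For TLR4, 1127 of the 14926 other genes, 7.55%, had r above 0.7 and 1345 had r below -0.7. For CD14 these were 285 genes, 1.91%, and 252 genes. For TLR2 they were 30 genes, 0.201%, and 67 genes. Such counts were not made for other genes, so what is usual here is not known. Nor were they made without high fertility replicate 1 and low fertility replicate 5, the libraries with the least TLR4. The 3 members did not lead each other's lists. For CD14, 6.82% of genes had a higher r than TLR4 and 9.38% a higher r than TLR2. For TLR4, 16.4% of genes had a higher r than CD14 and 24.4% a higher r than TLR2. For TLR2, 3.93% of genes had a higher r than CD14 and 8.21% a higher r than TLR4.

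The gene most like TLR4 was ENSBTAG00000014974, with r = 0.945 and rho = 0.877 over the 14 libraries as a description. It was at 34.3 ± 5.02 CPM (SD, n = 7) across high fertility samples and 34.1 ± 6.16 CPM (SD, n = 7) across low fertility samples. The gene most like CD14 was ENSBTAG00000014546, with r = 0.890 and rho = 0.815, at 2.97 ± 1.82 CPM (SD, n = 7) across high fertility samples and 4.004 ± 3.66 CPM (SD, n = 7) across low fertility samples. The gene most like TLR2 was ENSBTAG00000018123, with r = 0.877 and rho = 0.868, at 78.8 ± 12.6 CPM (SD, n = 7) across high fertility samples and 85.2 ± 22.1 CPM (SD, n = 7) across low fertility samples. Low fertility replicate 4 was the highest library for each of these, as for TLR2 and CD14, while for TLR4 itself it was second to high fertility replicate 7. Without low fertility replicate 4 r was 0.941 for TLR4, 0.840 for CD14 and 0.798 for TLR2. The libraries farthest from the TLR4 median, high fertility replicate 1 and low fertility replicate 5, were not left out here. By the quasi-likelihood F test of edgeR none of these nearest genes passed the threshold for fertility. The adjusted p was 0.993, 0.872 and 0.888 for those nearest TLR4, CD14 and TLR2. Each was chosen for its r with a member in these same libraries, so its fertility result is not separate from that of the member.

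Levels of the 3 genes were also set against measures of the libraries, 15 relations in all. The closest were with the second principal component of all genes tested, on which low fertility replicate 4 scored highest, at 58.0, and low fertility replicate 6 lowest, at -51.0. Pearson r with this score was 0.721 for CD14 (permutation p = 0.00443, adjusted 0.0664), 0.656 for TLR4 (permutation p = 0.0106, adjusted 0.0693) and 0.653 for TLR2 (permutation p = 0.01385, adjusted 0.0693). Spearman rho was 0.486 for CD14 (permutation p = 0.0812), 0.701 for TLR4 (permutation p = 0.00686) and 0.411 for TLR2 (permutation p = 0.147). The 3 genes are among those from which the component was computed. Without those 2 libraries r was 0.648 for TLR4, 0.570 for TLR2 and 0.253 for CD14, so the relation of CD14 rested on them.

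Within the groups, r with this component was 0.836 in high and 0.676 in low fertility samples for TLR4, 0.247 and 0.832 for CD14, and 0.474 and 0.841 for TLR2. CD14 also ran with log2 library total, at r = 0.613 (permutation p = 0.0250, adjusted 0.0730) and rho = 0.547 (permutation p = 0.0463). Low fertility replicate 6 had both the fewest counts and the least CD14. Without it and high fertility replicate 2, the deepest library, r was 0.313, and within the groups it was 0.152 in high and 0.778 in low fertility samples. With log2 library total as a covariate the fertility change of CD14 was -0.13 (SE 0.167, adjusted p 0.904 by the same edgeR test).

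TLR4 ran against the first component, at r = -0.583 (permutation p = 0.0292, adjusted 0.0730) and rho = -0.349 (permutation p = 0.221). This rested on low fertility replicate 5 and high fertility replicate 1, the libraries with the least TLR4, and r was 0.0966 without them. Leaving them out moved r with this component from 0.0853 to 0.624 for TLR2 and from -0.189 to 0.263 for CD14. TLR4 also ran with the percent of counts that the 10 most abundant genes took, at r = 0.605 (permutation p = 0.0229, adjusted 0.0730) and rho = 0.600 (permutation p = 0.0262), with r = 0.492 after low fertility replicate 5 and high fertility replicate 6 were left out. For CD14 with this percent r was 0.446 (permutation p = 0.110, adjusted 0.237) and rho was 0.591 (permutation p = 0.0292). None of the 15 relations passed the threshold after adjustment. The part of cell content, RNA quality or sampling in these relations was not tested.

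**Figure D5:**
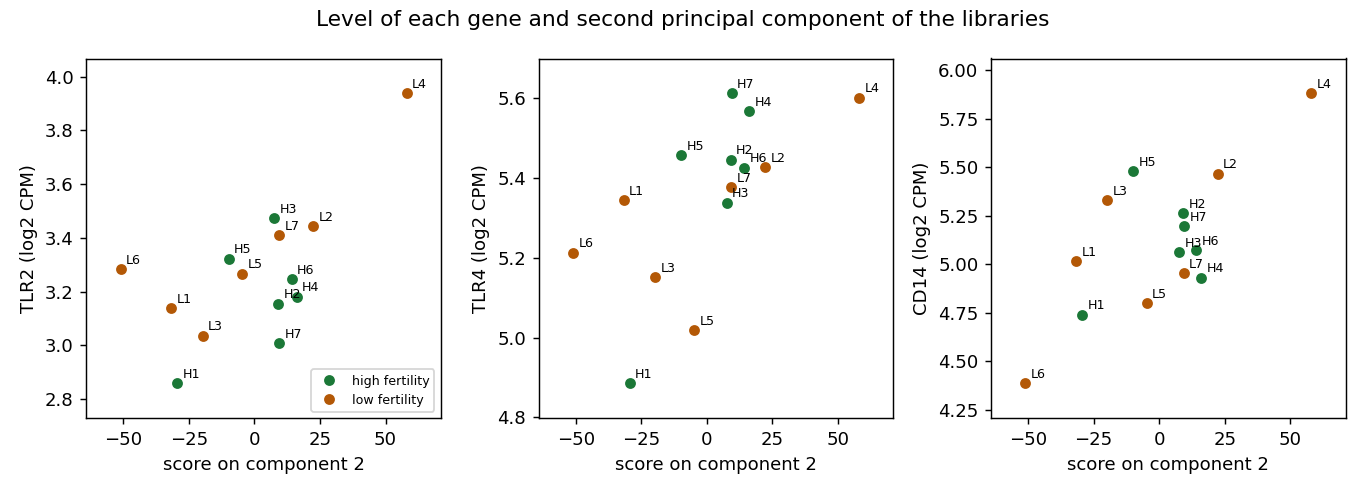
Log2 CPM of TLR2, TLR4 and CD14 against the score of each library on the second principal component of all genes tested, high fertility in green (H) and low fertility in brown (L). All 3 genes tend upward with the score. L4 at 58.0 and L6 at -51.0 form the ends, and the trend of CD14 among the other libraries is weak.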

How the data were processed

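Values are read counts per gene as the authors deposited them, whole numbers without normalisation. Per the submitters' processing notes the build is UMD3.1 and the tools include STAR, HTSeq 0.3p7, CASAVA 1.4 and edgeR; settings, annotation and strand use were not given in the sources used here. All 217336 values of the series table equalled those in the per-sample files (0 differed). Reads from overlapping, antisense or near-identical genes could not be told apart here.

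The fertility contrast was fitted with edgeR 4.0.16 in R 4.3.3: filterByExpr, TMM factors and robust quasi-likelihood fits over all 14 libraries without covariates, with Benjamini-Hochberg adjustment over 14929 genes. Standard errors were worked back from the F statistic. Log2 CPM used a prior count of 2. Single values were tested over all 3432 splits of 7 against 7, whose smallest two-sided p is 0.000583, and correlations over 14 libraries with 100000 resamples. Spread was tested on values centred on group medians, so its permutation p is approximate. Alternatives used DESeq2 1.42.0, limma 3.58.1 and sva 3.50.0. The gene test and the correlation ranking were tested on simulated data. Figures were drawn with matplotlib 3.10.9.

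The members, lists and alternatives were chosen with earlier results of these data known. Besides the members, the gene with the highest r to each was named. Lists of Toll-like receptor pathway genes and of cell type markers were not run, since 0 identifiers matched the 37063 genes of the RefSeq table (ARS-UCD2.0).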

Additional observations from a re-analysis of the deposited data

Results flagged for a closer look

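TLR2 in low fertility replicate 4, at 15.2 CPM, lay far above the next of its group at 10.8 CPM. This was 1 of 12 groups of 7 values examined (3 genes as CPM and 3 ratios as log2 in each fertility group), and chance sets about 1 in 20 groups apart in this way. The ratios are built from the genes, so the groups are not independent. The flag depends on the scale. As log2 CPM this TLR2 value was 3.94, the next 3.44 and the lowest of the group 3.04. TLR4 in high fertility replicate 1 was 4.89, the next 5.34 and the highest of its group 5.61. On that scale the TLR4 gap is the larger share of its range. As CPM the TLR4 gap was 0.562 of the range, just under the limit of 0.568. Low fertility replicate 4 also had the highest CD14 and the second highest TLR4.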

How the results depend on the processing

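TLR2 stayed lower and TLR4 higher in high fertility in all 27 other fits, at -0.26 to -0.068 and 0.045 to 0.18 log2, and no member passed the threshold in any. The fits share most libraries. CD14 turned to 0.015 by limma-voom with quality weights and to 0.040 without low fertility replicates 4 and 5 together, and was -0.17 to 0.082 without 1 library, the highest without low fertility replicate 4. Genes past the threshold over all genes numbered 19 by DESeq2, 9 by edgeR's exact test, 8 by limma-voom with and 1 without quality weights, 3 with upper quartile factors or no composition factor, 1 with log2 library size as a covariate, 2 without low fertility replicates 4 and 5, and 0 to 5 without 1 library. Without 1 library, the difference in log2 ratio was -0.33 to -0.20 for TLR2 over TLR4, -0.26 to -0.060 for TLR2 over CD14 and 0.021 to 0.21 for TLR4 over CD14, and the difference in SD was -0.30 to -0.15 for CD14, -0.13 to 0.046 for TLR2 and -0.093 to 0.085 for TLR4. Without low fertility replicates 4 and 5 the SD difference of TLR2 was 0.028. Pearson r without 1 library was 0.239 to 0.618 for TLR2 with TLR4, 0.138 to 0.644 for TLR2 with CD14 and 0.484 to 0.646 for TLR4 with CD14; all 3 had an adjusted permutation p of 0.0463 without high fertility replicate 7. As deviations from group means r was 0.577 for TLR2 with TLR4 and 0.586 for TLR4 with CD14 (adjusted permutation p 0.0481 each). Without the 2 libraries farthest from the TLR2 median r was -0.109 with TLR4 and -0.0605 with CD14. Leaving out a library shows how far a value rests on it, and the cause of these differences was not tested. Counting error was 6.74% for TLR2, 3.27% for TLR4 and 3.51% for CD14. No paired analysis was possible because the labels give the groups no shared numbers.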
